A study of Mus musculus with 23 samples.

Results

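The first transcriptional response of mouse medulloblastoma to a Smoothened antagonist was read from 5 expression arrays, 3 of tumours taken 4 h after the drug and 2 of tumours taken 4 h after vehicle, out of 23 arrays in the series. The arrays were chosen by the treatment and time in their labels, and every non-control probe set was considered, 45037 of 45101. The tumours carried the genotype Ptch+/-HIC+/-, so both groups are short of 1 working copy of the Hedgehog receptor gene. Cells dissociated from such tumours were grown under the skin of the flank of nude mice, which lack a thymus, and not in the cerebellum. The treated mice received NVP-LDE225 (written LDE225AZ in some labels) at 40 mg/kg, and the sources used here do not state what the vehicle was or how often it was given. Other groups used below for comparison are 3 vehicle arrays with no stated time, 3 treated arrays each at 8, 24 and 48 h after 40 mg/kg, and 6 arrays of tumours labelled resistant, 3 at 40 mg/kg and 3 at 160 mg/kg. The labels do not say whether replicates came from separate animals, so p-values reflect sample-to-sample spread, which may be technical.

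In the Hedgehog pathway, a secreted ligand relieves the inhibition that the receptor Patched places on the transmembrane protein Smoothened. Active Smoothened lets Gli transcription factors enter the nucleus in their activating form, and these raise their targets, among them the genes of Gli1 and of Patched itself. In the developing cerebellum the pathway drives the division of granule neuron progenitors, and tumours with a defective Patched keep it on without ligand.

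Some labels of these arrays disagree. Treated replicates 2 and 3 are called resistant in their source names, while their descriptions and tumour status say sensitive, and the latter were followed. Vehicle replicate 1 has an identifier from another run of numbers than the other 4 arrays. Genes of granule neuron progenitors were present on all 5 arrays: the signal of Atoh1, the progenitors' defining transcription factor, was 4089.8, 4071 and 4218.9 on the treated arrays and 3317.2 and 3355.2 on the vehicle arrays. Zic1, another cerebellar progenitor factor, was between 4618.9 and 5587.4. Median signals ran from 33.9 to 38.8, and correlations of log2 signal between any pair of the 5 arrays from 0.9643 to 0.9783. The 3'/5' ratio of actin, a measure of RNA integrity, was 1.40, 1.12 and 1.10 (log2) on the treated arrays and 1.11 and 1.25 on the vehicle arrays.

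Of 35069 tested probe sets, 100 differed between treated and vehicle tumours at 4 h (0.285%). A probe set is called here when its limma p-value, adjusted by Benjamini-Hochberg over all tested probe sets, is under 0.05. The response was mainly a loss of transcripts: 82 probe sets fell (0.234%) and 18 rose (0.0513%). Among those with an unadjusted p under 0.05 the balance was more even, 1265 lower and 1051 higher of 2316. The called probe sets with 1 gene symbol stand for 45 genes that fell and 15 that rose. A further 12 called probe sets that fell and 3 that rose have no single symbol, the largest at -2.09 and 1.48 (log2). Differences are of log2(signal + 16), a scale that understates changes of dim probe sets.

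The falls were larger than the rises. The median difference was -1.16 among the 82 that fell and 0.73 among the 18 that rose, against -0.01 over all tested probe sets, and 57 of the falls but 5 of the rises exceeded 1 on the log2 scale. In all 100, the 3 treated arrays lay on 1 side of both vehicle arrays. Over all tested probe sets, treated arrays lay wholly below in 12.9% and wholly above in 11.4%. The treated arrays lay beyond all 5 vehicle arrays of the series in 80 of the 82 falls and 15 of the 18 rises. These probe sets were called on the same treated and 4 h vehicle arrays. The share over all tested probe sets was not counted, so these counts are description only. Of 16 genes with at least 2 called probe sets, all fell, and in 10 genes every tested probe set was called (of genes with at least 2 tested).

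**Figure D1:**
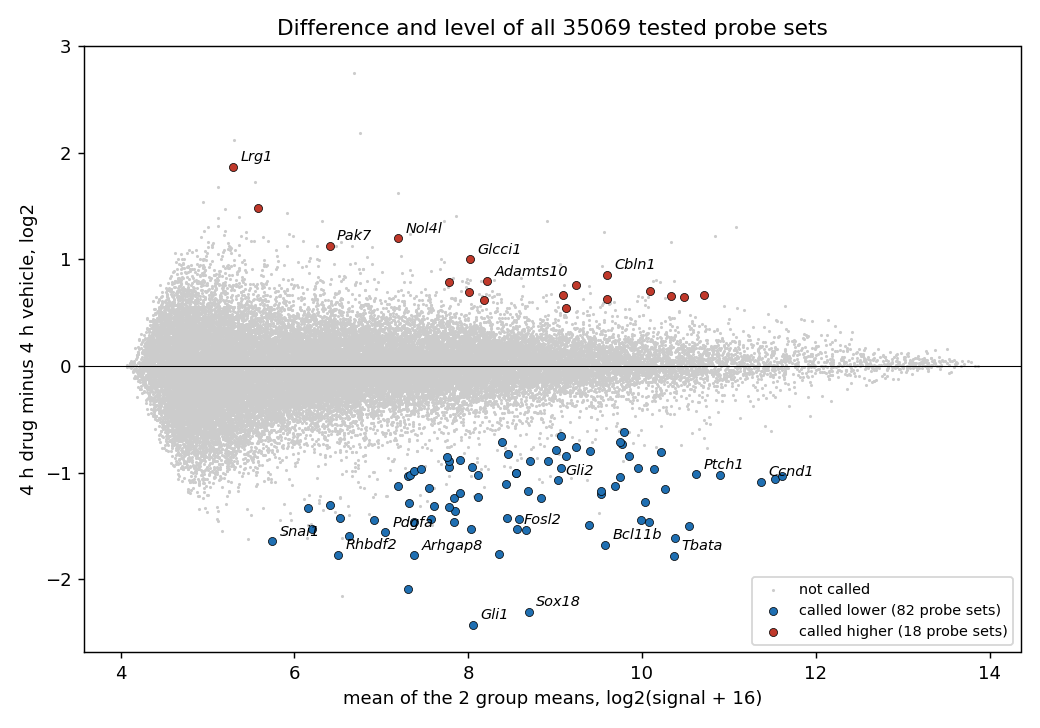
Each point is 1 of the 35069 tested probe sets, with the mean of both group means in log2(signal + 16) on the x axis and the 4 h drug minus 4 h vehicle difference (log2) on the y axis; blue marks the 82 probe sets called lower and red the 18 called higher. Gli1 at -2.42 and Sox18 at -2.30 lie lowest, and the rises other than Lrg1 and 1 unnamed probe set lie at or below 1.197.

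With 3 arrays against 2, an exact rank-sum test of a single gene could not give a two-sided p under 0.2. The calls therefore rest on the spread that limma pools over the 8 groups of the series. Single arrays mattered. Leaving out treated replicate 1, 2 or 3 gave 69, 49 or 66 called probe sets, and leaving out vehicle replicate 1 or 2 gave 30 or 36, a setting that gives the 1 vehicle array left the spread seen elsewhere in the series. There were 34 without the 2 treated arrays whose source names say resistant, 16 of them among the 100. Blocking on the identifier run left 25 calls, 20 of them among the 100; as vehicle replicate 1 is alone in its run, the block takes it out of the contrast and is no separate check from leaving it out. Of the 70 named probe sets that fell, 10 were called whichever of the 5 arrays was left out, 19 in 4 of 5 cases, 29 in 1 to 3 and 12 in none. Of the 15 that rose, 9 were called in 1 to 3 cases and 6 in none. Against the 3 untimed vehicle arrays, which are separate controls for the same treated arrays, 65 of the 70 falls and 8 of the 15 rises were called, where 1.18% of all tested probe sets were lower and 0.904% higher. Those 3 arrays belong to another identifier run than the treated arrays, so run and treatment cannot be told apart in that comparison.

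Within the Hedgehog pathway, Gli1, Gli2, Ptch1, Boc, Ccnd1 and Mycn fell at 4 h, while Smo, Sufu and Hhip did not pass the test. Gli1, the pathway-induced activator, had signals of 121.7, 96.6 and 82.2 on the treated arrays and 516.7 and 699.6 on the vehicle arrays. Even the highest treated array was far below the lower vehicle array, and treated replicate 1 was the highest of the 3. The difference was -2.42 (SE 0.35, adjusted p = 0.0011), the largest fall of any tested probe set that was called. Its adjusted p was 0.056 without vehicle replicate 2 and 0.10 without the 2 arrays with conflicting labels, where the difference was -2.16. On the 6 resistant arrays the Gli1 signal ran from 593.7 to 1268.8, above every treated 4 h array.

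Ptch1, the receptor that restrains Smoothened, had signals of 1104.7, 1131.1 and 1049.4 after treatment and 2383 and 2081.4 after vehicle. The groups were well separated, and the difference was -1.01 (SE 0.16, adjusted p = 0.0026). A second Ptch1 probe set gave -0.96 (adjusted p = 0.063) and the third, at a mean signal under 50 in both groups, 0.01. Gli2, the main activator downstream of Smoothened, fell on both of its probe sets, by 1.07 (adjusted p = 0.0019) and 0.96 (adjusted p = 0.0024). Its signals on the second were 710.9, 737.3 and 645.8 against 1478 and 1271. Boc, a co-receptor that presents the ligand, fell on 2 of 3 probe sets, with signals of 693.9, 624.6 and 669.0 against 1081.6 and 1136 on the probe set with the highest mean (difference -0.73, adjusted p = 0.015). In each of these genes the treated arrays lay close together.

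Ccnd1, cyclin D1, which links the pathway to entry into the cell cycle, fell on all 3 of its probe sets. On the probe set with the smallest p the signals were 1863.4, 1813 and 1737 against 3629 and 4067.5 (difference -1.08, SE 0.14, adjusted p = 0.00019), and this call was kept whichever array was left out. Mycn, a growth-promoting transcription factor, had signals of 756.1, 676.9 and 557.8 against 1106 and 1068.5 (difference -0.71, adjusted p = 0.018), and its other 2 probe sets were not called. With vehicle replicate 1 left out, adjusted p-values were 0.13 (Ptch1), 0.13 for Gli2 (0.059 on the other probe set), 0.15 for Boc and 0.25 for Mycn. In the same order they were 0.033, 0.028 (0.052), 0.22 and 0.17 without vehicle replicate 2, and without treated replicates 2 and 3 they were 0.099 and 0.054 for Boc and 0.066 and 0.12 for Mycn. Without the 2 arrays with conflicting labels the differences were -1 for Ptch1, -0.93 for Gli2, -0.66 for Boc, -0.52 for Mycn and -1.04 for Ccnd1, which alone among these 5 was called (adjusted p = 0.028).

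Hhip, a decoy that binds the ligand at the cell surface, illustrates a target that did not pass. Its 4 probe sets gave differences from -1.31 to -0.79, all of them with treated arrays below vehicle arrays, and adjusted p-values from 0.54 to 0.77. On the brightest the signals were 179.2, 122.3 and 117.1 against 343.3 and 258.1 (difference -1.03, SE 0.39, adjusted p = 0.56). Its standard error exceeded that of Gli1, whose difference was larger. Smo, which encodes the drug's target, gave 0.05 and -0.02 on its 2 probe sets, with vehicle arrays on both sides of the treated ones. Sufu, the cytoplasmic inhibitor of Gli proteins, gave -0.43 (adjusted p = 0.5) on its brightest probe set, with signals of 241.2, 207.6 and 209.9 against 322.2 and 280.5. Gli3, the repressor-forming Gli protein, was under a signal of 50 in both groups, and Ccnd2, cyclin D2, gave differences from -0.43 to 0.08 on 7 probe sets.

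**Figure D2:**
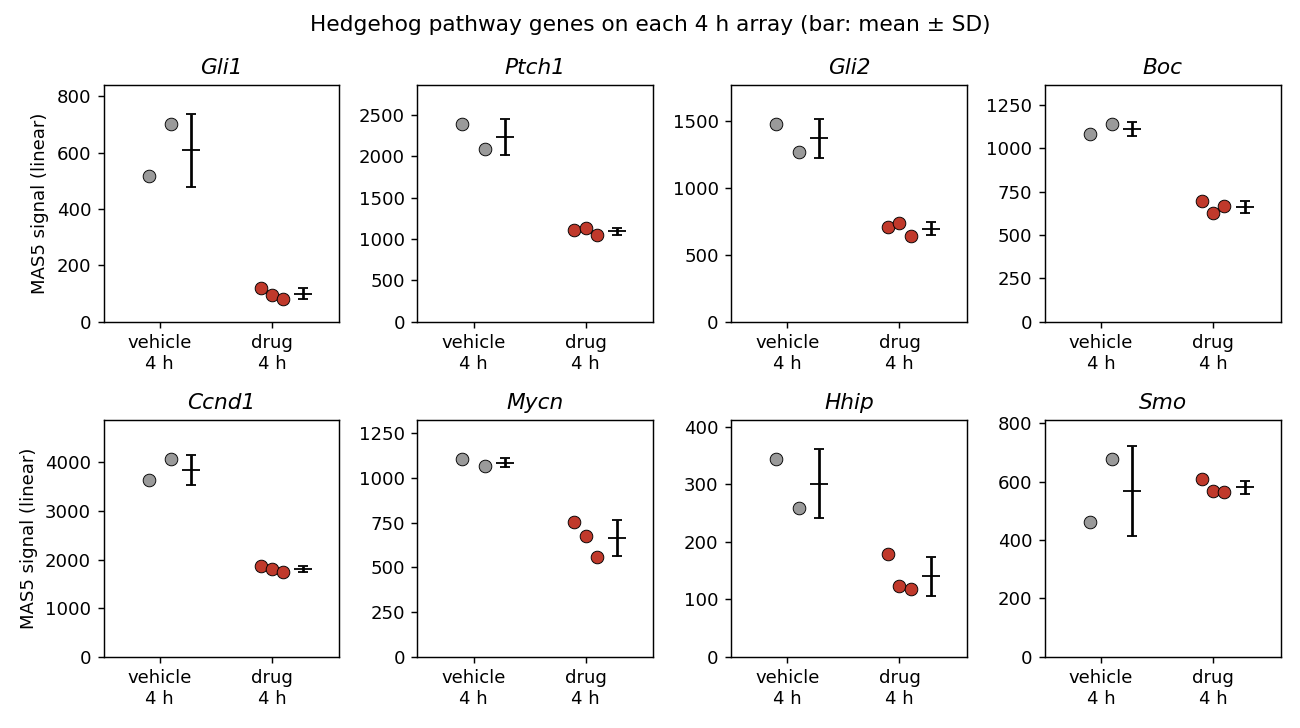
Signal (linear MAS5 units, each axis from 0) of 8 Hedgehog pathway genes on the 2 vehicle and 3 treated arrays at 4 h, with the mean ± SD of each group beside its points. Gli1, Ptch1, Gli2, Boc, Ccnd1 and Mycn show groups that do not overlap and were called; Hhip also does not overlap but was not called, and the Smo groups overlap.

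Each gene of the lists below is represented by its brightest tested probe set. Counted that way, 39 of 14980 genes fell (0.26%) and 13 rose (0.0868%), with a median difference of 0.01. Of 23 Hedgehog pathway targets 6 fell and 0 rose, with a median of -0.17; the list overlaps what the earlier results of these data already showed, so it is not independent evidence of a direction. The uncalled members were mixed: Rab34, a small GTPase needed for cilia, gave -0.43 (adjusted p = 0.36), and Atoh1 gave 0.30 (adjusted p = 0.61). Of 21 genes of signal transduction none was called and the median was 0.05. Cdon, the co-receptor related to Boc, gave 0.66 (adjusted p = 0.12), with signals of 375.6, 392.3 and 367.8 against 233.7 and 234.7, the opposite side from Boc.

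Transcription factors outside the pathway made up several of the largest falls. Sox18, a factor best known from blood and lymph vessels, had signals of 178.7, 173.9 and 161.7 against 902.6 and 912.9. The arrays of each group nearly coincided, and the difference was -2.30 (SE 0.25, adjusted p = 4.5e-05). It was called whichever array was left out. The vehicle arrays with no stated time were lower than the 4 h vehicle, at 587 ± 96.1 (SD, n = 3), and against them the difference was -1.67 (adjusted p = 8.3e-05). Sox18 on the resistant arrays ran from 144.8 to 1091.1, so those arrays span both groups.

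Sox18 was the 1 called gene of 22 Sox, Klf and Ets family factors of vessels, and none of 22 endothelial cell markers was called. The summed signal of the 22 markers was 1736.6, 1653.2 and 1596.1 on the treated arrays and 2120.1 and 1607.9 on the vehicle arrays, and the groups overlapped. In whole tumours, fewer cells of a type and less RNA per cell cannot be told apart. Flt1, a receptor for vascular growth factor, gave -0.36 (adjusted p = 0.9), and Cdh5, the cadherin of endothelial junctions, -0.43 (adjusted p = 0.94).

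Bcl11b, a zinc-finger repressor of neuronal and T cell development, fell on all 4 of its probe sets, by 1.43 to 1.68. On the brightest the signals were 373.5, 431.4 and 431.7 against 1341.3 and 1355.7 (adjusted p = 0.00077), a call kept whichever array was left out. Snai1, a repressor known from epithelial-mesenchymal transition, went from 70.8 and 87.4 on the vehicle arrays to 20, 12 and 11.9, where the treated signals are under each array's 40th percentile (difference -1.64, adjusted p = 0.019). Its call was lost without treated replicate 2 or 3 (adjusted p = 0.099 and 0.087) or without either vehicle replicate (0.15 and 0.28). Smad3, a transducer of TGF-beta signals, fell by 1.53 on 1 of 3 probe sets, from 406.2 and 454.4 to 123.3, 142.4 and 151.7 (adjusted p = 0.0016, and 0.058 without vehicle replicate 2). Another Smad3 probe set gave 0.15, so the probe sets of that gene disagree. Lcor, a nuclear receptor corepressor, fell by 0.66 (adjusted p = 0.031), called in 1 of the 5 analyses that leave out an array.

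Among 30 immediate early genes, which are switched on within minutes of a growth signal, 2 fell and 0 rose, with a median of -0.16. Fosl2, a partner in AP-1, had signals of 271.8, 199.3 and 160.1 against 672.7 and 580.3, a difference of -1.53 (SE 0.17, adjusted p = 4.5e-05) that was called whichever array was left out. Its other probe set gave -1.05 (adjusted p = 0.074). Egr1, a zinc-finger activator, had 155.4, 124.3 and 122.3 against 325.2 and 347.3 (difference -1.24, adjusted p = 0.0024, and 0.055 and 0.069 without vehicle replicates 1 and 2). Egr2 gave -1.22 (adjusted p = 0.077) and Rhob, a small GTPase, -0.60 (adjusted p = 0.11). A Jun probe set gave -0.67 and lay just outside the threshold (adjusted p = 0.054), while the brightest Jun probe set gave -0.47 (adjusted p = 0.52). Among 23 MAPK feedback genes, such as the Dusp phosphatases and Spry proteins, none was called and the median was 0.02. Dusp4, a nuclear phosphatase, gave 0.61 (adjusted p = 0.56).

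Pdgfa, a ligand of the platelet-derived growth factor receptors, fell on both probe sets, with signals on 1 of them of 81.4, 61.8 and 44.1 against 212.4 and 208.6 (difference -1.56, adjusted p = 0.0015, at most 0.048 whichever array was left out). Lrig3, a membrane protein of the family that modulates receptor tyrosine kinases, fell on all 3 probe sets, with 626.1, 644.7 and 717.7 against 1673.2 and 1568.9 on the brightest (difference -1.27, adjusted p = 4.5e-05, kept whichever array was left out). Treated and vehicle signals of both genes were far apart compared with the spread inside each group.

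Wnt4, a secreted Wnt ligand, had 403.7, 357.7 and 395.4 against 861.2 and 1430.1, where the 2 vehicle arrays themselves stand apart (difference -1.49, adjusted p = 0.034, and 0.069 to 0.5 when any array was left out). The other Wnt4 probe set was also called, with 215.4, 224.3 and 214.7 against 538.6 and 706.6 (difference -1.435, adjusted p = 0.0094). Ror2, a Wnt receptor kinase, fell by 0.95 (adjusted p = 0.014) on 1 of 2 probe sets. Of 24 genes on the Wnt list 1 fell, Ccnd1, which is also a Hedgehog target, with a median of -0.21 over the list. Fzd1, a Wnt receptor, gave -0.54 (adjusted p = 0.21). Rgmb, a co-receptor for bone morphogenetic proteins, fell on 2 of 6 probe sets, by 0.97 and 0.95, and of 29 genes of BMP, activin and TGF-beta signalling 1 fell, Smad3 (median -0.01).

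Gab1, a docking protein below receptor kinases, fell on 2 of 3 probe sets, with differences of -1.167 (adjusted p = 0.0062) and -1.105 (adjusted p = 0.0024). Rhbdf2, a rhomboid-like protein that guides the sheddase of growth factor precursors, went from 157.2 and 145.5 to 18.1, 34.3 and 53 (difference -1.77, adjusted p = 0.0016, and 0.067 without vehicle replicate 1). Arhgap8, a GTPase-activating protein, went from 264.4 and 323.3 to 79.6, 69.7 and 73.5 (difference -1.77, adjusted p = 0.0052, and 0.068 and 0.16 without vehicle replicates 1 and 2). Bcar3, an adaptor of integrin signalling, fell by 1.23 (adjusted p = 0.0062) on 1 of 2 probe sets, and the other gave 0.105. Gpsm1, a regulator of heterotrimeric G proteins, fell on all 3 of its probe sets, with differences of -1.169, -0.887 and -0.827. None of these Gpsm1 falls was called when any treated array was left out. Trim8, a ubiquitin ligase of the tripartite motif family, fell by 1.36 on 1 of 3 probe sets (163.9, 119.4 and 105.6 against 325.1 and 380.1, adjusted p = 0.00019) and was called whichever array was left out.

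Nptx1, a secreted pentraxin of synapses, had 2047.4, 1892.6 and 2170.5 against 4426.9 and 4080.9 on its brighter probe set (difference -1.06, adjusted p = 0.0024, and 0.089 without vehicle replicate 1), and its other probe set fell by 1.15. Doc2b, a calcium sensor of vesicle release, fell on both probe sets by 1.28 and 1.23, and Lingo1, a Nogo receptor partner on neurons, on both by 1.02 and 0.98. Synpo, an actin-binding protein of dendritic spines and podocytes, fell by 1.43 (adjusted p = 0.014, called in 1 of the 5 analyses that leave out an array). Otud7a, a deubiquitinase, fell by 0.85 (adjusted p = 0.046). The signal of Mir9-3hg, the host transcript of a miR-9 gene, fell by 1.03 (adjusted p = 0.03); the array reads the host transcript, and the mature miRNA is not measured by it.

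Tbata, a gene known from thymus, brain and testis, fell on 3 of 4 probe sets, by 1.5 to 1.78, and all 3 calls were kept whichever array was left out. On the probe set with the largest fall, the signals were 634, 670.2 and 808 against 2408.9 and 2473.3 (adjusted p = 4.5e-05). Prm1, a protamine of sperm chromatin, fell on 2 of 3 probe sets, with 609.4, 671.4 and 623.2 against 2196 and 1435.9 on 1 of them (difference -1.46, adjusted p = 0.0016, and 0.14 without vehicle replicate 1). All of the called Tbata and Prm1 probe sets have identifiers ending in _a_at or _x_at, which marks probes shared among transcripts, so the transcript that gave the signal is uncertain.

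Of 30 genes of hypoxia and glycolysis 1 fell, the hexokinase Hk2, with a list median of 0.14. Its signals were 556.6, 480.6 and 390.5 against 1192.6 and 1016.5 (difference -1.20, adjusted p = 0.023, and 0.35 and 0.15 without vehicle replicates 1 and 2). Lasp1, an actin-binding adaptor of focal adhesions, fell on 5 of 9 probe sets by 0.79 to 0.97, 4 of them with shared probes. Gpd1l, a glycerol phosphate dehydrogenase, fell by 0.61 (adjusted p = 0.01) with treated signals of 720.5, 664.5 and 712 against 980.7 and 1186.4. Tiparp, a poly-ADP-ribose polymerase induced by the aryl hydrocarbon receptor, fell by 0.71 (adjusted p = 0.02) and was the 1 gene called of 19 xenobiotic receptor and NRF2 genes. The other named falls were Ccm2, Osbp2, Tmtc1, Pde4dip, Adamts1, Lap3, Frmd4b, Abcc5 and the uncharacterised B130055M24Rik, with differences from -1.33 to -0.80. Abcc5, a drug efflux transporter, was called on 1 of 9 probe sets, which spanned -0.89 to 0.73.

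**Figure D3:**
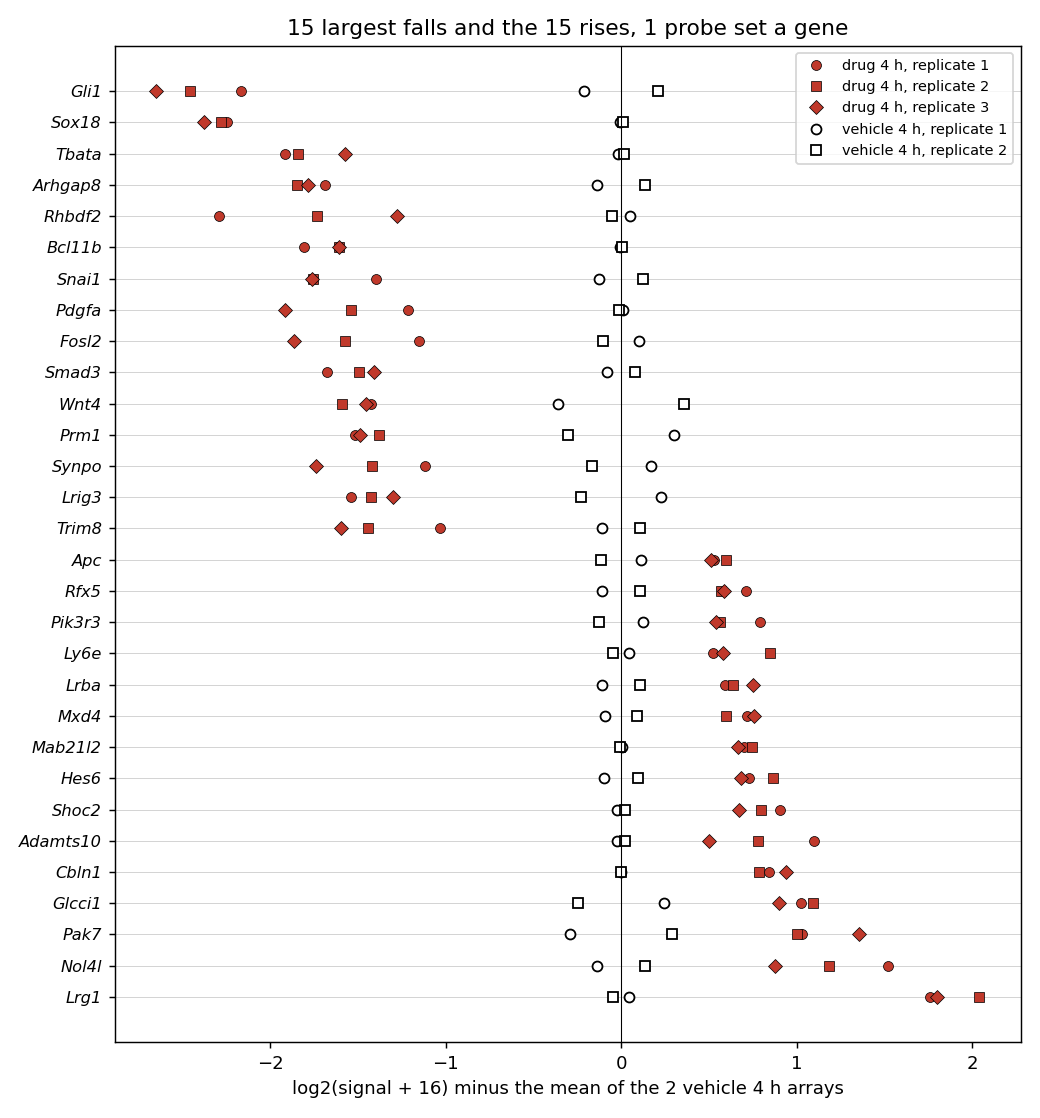
Signal of each array as log2(signal + 16) minus the mean of both 4 h vehicle arrays, for the 15 largest falls and the 15 rises, with 1 probe set a gene (the one with the largest called difference); red symbols are the 3 treated replicates and open symbols the 2 vehicle replicates. In all 30 genes the treated symbols lie on 1 side of both vehicle symbols, and the vehicle symbols of Wnt4, Prm1, Glcci1 and Pak7 lie farther apart than those of Sox18 and Cbln1.

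The 15 genes that rose did so by 0.55 to 1.87. Lrg1, a secreted leucine-rich glycoprotein, had 53.6, 68.6 and 55.7 against 5.2 and 3.9, where the vehicle signals are under each array's 40th percentile (difference 1.87, SE 0.36, adjusted p = 0.015, and 0.17 and 0.21 without vehicle replicates 1 and 2). Nol4l, a nucleolar protein of little-known function, had 262.2, 204.1 and 162 against 72.1 and 90.2 (difference 1.197, adjusted p = 0.047), and another of its 3 probe sets gave -0.50. Pak7, a serine/threonine kinase of neurons, had 101.2, 98.9 and 130.8 against 30.9 and 54.2 on its called probe set (difference 1.13, adjusted p = 0.039). Its other probe sets were not called, with 0.41 as the lowest difference. None of these 3 rises was called in more than 1 of the 5 analyses that leave out an array.

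Hes6, a helix-loop-helix factor that antagonises Hes1 in neurogenesis, had 753.5, 832.9 and 729.5 against 418.5 and 481.4 (difference 0.76, adjusted p = 0.0066, and 0.22 without vehicle replicate 1). That probe set has shared probes, and the other gave 0.58 (adjusted p = 0.63). It was the 1 called gene of 28 Notch, Hes and Id genes (median 0.07), in which Hes1 gave -0.80 (adjusted p = 0.14; 115.7, 112.1 and 111.8 against 211.9 and 204.6). Id2, an inhibitor of helix-loop-helix factors, gave 0.80 and lay just outside the threshold (adjusted p = 0.05 as rounded). Cbln1, a synapse organiser made by granule neurons, had 1018.4, 976.8 and 1086.8 against 558.7 and 560.3 (difference 0.86, adjusted p = 0.043, and 0.12 to 0.33 when any array was left out), and its other 2 probe sets gave 0.68 and 0.56 without a call. Cbln1 was the 1 called gene of 24 on the granule neuron progenitor list, which also holds members of the neuronal differentiation list such as Neurod1. The median of the 24 was 0.31, where Meis1, a homeobox factor, gave 0.57 (adjusted p = 0.085) and Sox4 0.56 (adjusted p = 0.21). Mab21l2, a regulator of neural development, rose by 0.71 (adjusted p = 0.0024, and 0.059 and 0.058 without vehicle replicates 1 and 2).

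Of 33 neuronal differentiation genes none was called, and the median was 0.18. Nfasc, a cell adhesion protein of axons, gave 0.76 (adjusted p = 0.28), and Tubb3, a neuronal tubulin, 0.69 (adjusted p = 0.69). The median difference of this list between the 4 h vehicle arrays and the other vehicle arrays was 0.45, more than the median between treated and vehicle tumours.

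Growth control genes that rose included Mxd4, which competes with Myc proteins for their partner Max. Of the 4 Mxd4 probe sets, which spanned -0.19 to 0.69, only the brightest was called, and its values follow. Its signals were 317.3, 291.1 and 326.4 against 173.9 and 200 (difference 0.69, adjusted p = 0.01, and 0.27 without vehicle replicate 1). The vehicle arrays with no stated time had 279 ± 23.1 (SD, n = 3), and against them the difference was 0.15 (adjusted p = 0.64). Its relative Mxd1 gave 0.94 (adjusted p = 0.17; 83.5, 73.1 and 86.9 against 37.9 and 31.3). In the network of 13 Myc, Max and Mxd genes Mycn fell, Mxd4 rose and the median was 0.22. Pik3r3, a regulatory subunit of PI3 kinase, had 1065.1, 908.2 and 892.4 against 665 and 557.5 (difference 0.63, adjusted p = 0.039). It was the 1 called gene of 30 PI3 kinase and insulin-like growth factor genes (median 0.08).

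Apc, a scaffold of the beta-catenin destruction complex, rose by 0.55 (adjusted p = 0.019) on 1 of 4 probe sets, and its brightest gave 0.38 (adjusted p = 0.69). Shoc2, a scaffold of Ras and Raf, rose by 0.79 (adjusted p = 0.047), with another Shoc2 probe set at -0.08. Glcci1, a gene named for its induction by glucocorticoids, rose by 1.00 (adjusted p = 0.0083) on 1 of 3 probe sets, while none of 22 glucocorticoid-induced genes was called (median 0.24). Rfx5 and Lrba, genes of the immune system that other cells express too, rose by 0.62 and 0.66, and Adamts10, a secreted protease, by 0.79. Ly6e, a membrane-anchored Ly6 protein, rose by 0.65 (adjusted p = 0.01). The 4 h vehicle arrays were themselves below the other vehicle arrays for Ly6e, by a called difference (-0.65, adjusted p = 0.025), and against those other arrays the treated difference was 0.01 (adjusted p = 0.99). Between these 2 groups of vehicle arrays 43 probe sets were called over the series (0.123%), none of them among the 82 falls and 2 among the 18 rises. In the 4 h vehicle minus the other vehicle arrays, 15 of the 18 rises were below 0 (median -0.26). Of the 82 falls 43 were below 0 (median -0.04). The 4 h vehicle arrays also entered the 4 h calls, so these counts are not independent of them and are description only.

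Cell cycle genes beyond Ccnd1 were not called at 4 h. Of 44 DNA replication and S phase genes none was called, and 41 had differences below 0, with a median of -0.23; over all genes 7179 of 14980 were below 0. Cdt1, which licenses replication origins, gave -0.59 (SE 0.17, unadjusted p = 0.00182 and adjusted p = 0.24 by limma; 1275.1, 1316.4 and 1295.3 against 1730.3 and 2214.7), and Ung, a uracil glycosylase, -0.86 (adjusted p = 0.23). The summed signal of the 44 genes was 39469.7, 42188.1 and 44236.9 on the treated arrays and 44141 and 51854.5 on the vehicle arrays, and the groups overlapped. At 8 h, set against the same 4 h vehicle arrays, the list's median was -1.09. Of 50 mitosis genes none was called and the median was 0.07, with differences from -0.42 to 0.34. Of 26 genes of G1/S entry Ccnd1 fell, with a median of -0.09; Ccnd3, cyclin D3, gave -0.78 (adjusted p = 0.1).

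The remaining lists held no called gene. For pathways these were ribosome biogenesis and Myc targets (31 genes, median -0.10), p53 targets and apoptosis (27, 0.05), cholesterol synthesis (20, -0.05), unfolded protein and heat shock (28, 0.03), the circadian clock (19, -0.02), interferon response (24, 0.08) and NF-kB and cytokine genes (19, -0.13). In the first of these Polr1b, a subunit of RNA polymerase I, gave -1.05 (adjusted p = 0.11), with signals of 166.3, 346.9 and 447.9 against 605.9 and 664. Among markers of other cells in the graft, medians were -0.10 for fibroblasts and matrix (20 genes), 0.22 for macrophages and microglia (25), -0.03 for pericytes and smooth muscle (12), -0.21 for skeletal muscle (22), 0.57 for adipocytes (10), -0.32 for skin (9), -0.18 for lymphocytes and natural killer cells (11), -0.10 for neutrophils (8) and -0.06 for erythroid cells (3). The summed macrophage signal was 3437.2, 4867.1 and 4632 on the treated arrays and 4379.5 and 2890.3 on the vehicle arrays, and the summed adipocyte signal 13913.2, 14601.6 and 13242.5 against 12994.4 and 13870.1, so both sets of groups overlapped. Treated sums lay below 4 h vehicle sums for skin (269, 286.4 and 280.7 against 362.5 and 434.3), for oligodendrocytes and Schwann cells (949.1, 1036.1 and 994.1 against 1267.5 and 1411.3) and for astrocytes and glia (6925.8, 7032.2 and 7017.5 against 8414 and 7517.1). On the untimed vehicle arrays the astrocyte and glia sums ran from 5995.5 to 6842.1, below every treated sum, and that list's median difference was 0.01. There the sums ran from 398.2 to 481.3 for skin and from 1295.2 to 1636.2 for oligodendrocytes and Schwann cells, above every treated sum. The part of these cells in the results above was not tested further.

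**Figure D4:**
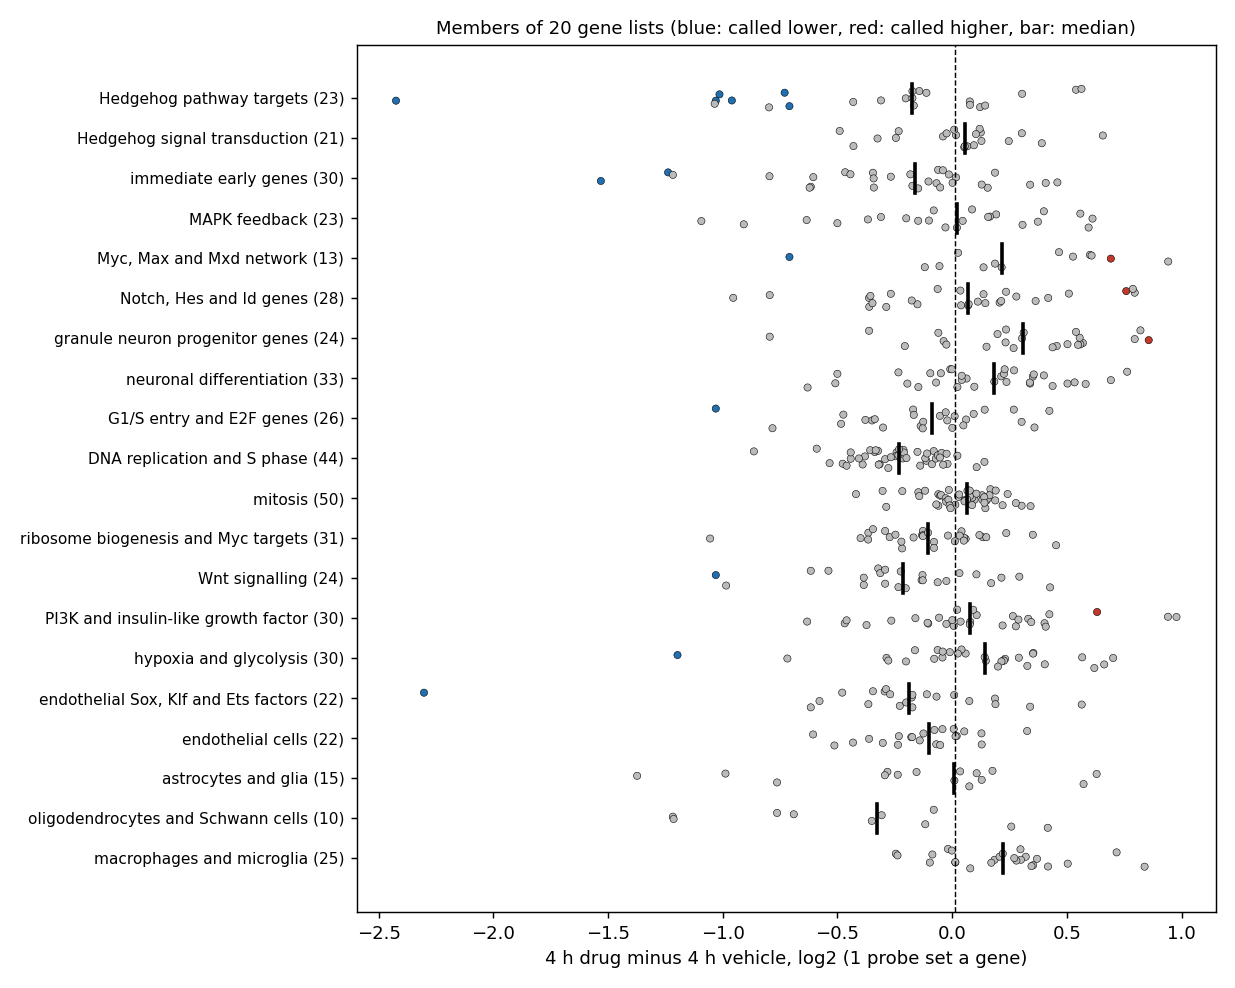
Differences of the measured members of 20 gene lists, 4 h drug minus 4 h vehicle in log2, with 1 probe set a gene; the black bar is the list's median, the dashed line the median of all 14980 genes (0.01), and the number of members is in brackets. Hedgehog pathway targets hold 6 called falls, immediate early genes 2, and DNA replication genes form a narrow cloud around -0.23 with no called gene.

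Most genes that fell at 4 h were low at later times too, in arrays that had no part in the 4 h differences, though they entered the pooled spread behind the 4 h calls. Of the 82 probe sets, 73 were called lower at 24 h against the untimed vehicle arrays, where 12.5% of all tested probe sets were lower and 16.6% higher. None was called higher. At 48 h 67 were lower and 2 higher, where 17.7% of all were lower and 20.6% higher. The median difference of the 82 was -1.70 at 24 h and -2.005 at 48 h, against 0.09 and 0.04 over all tested probe sets. Both times share the vehicle arrays, so they are not independent of each other. The 3'/5' ratio of actin (log2) was 1.83, 1.72 and 1.41 at 24 h and 0.95, 0.84 and 0.96 at 48 h. On the untimed vehicle arrays it was 1.03, 1 and 1.08. The part of RNA integrity in the 24 h differences was not tested.

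In 65 of the 82 the fall was called at both 24 and 48 h, among them all called probe sets of Gli1, Ptch1, Gli2, Boc, Ccnd1, Mycn, Sox18, Bcl11b, Tbata, Lrig3, Pdgfa, Wnt4 and Nptx1. The share of all tested probe sets called lower at both times was not counted, and it cannot exceed the 12.5% lower at 24 h. The depth reached differed among genes. Nptx1, on its brighter probe set, went from 2037 ± 139 (SD, n = 3) at 4 h to 72.2 ± 10.8 (SD, n = 3) at 24 h. Ccnd1, on the probe set with the smallest 4 h p, went from 1804 ± 63.6 to 742 ± 44.1 at 24 h and 297 ± 3.92 at 48 h. Gli1 went from 100.2 ± 19.99 to 20.4 ± 24.1 at 24 h. Sox18 stood at 172.6 ± 35.8 at 24 h and 276.4 ± 56.7 at 48 h, against 171.4 ± 8.76 at 4 h.

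Some of the early falls were not called later. Neither 24 h nor 48 h gave a call for Synpo, Lingo1, Adamts1 and B130055M24Rik (6 probe sets with an unnamed one). Egr1, Gab1, Abcc5 and 3 probe sets of Lasp1 were lower at 24 h and not called at 48 h (7 probe sets). Egr1 was 161.2 ± 22.8 at 24 h and 307.5 ± 43.5 at 48 h, against 316.3 ± 34.0 in the vehicle arrays with no stated time and 134.0 ± 18.6 at 4 h. Fosl2 gave -0.35 at 24 h (adjusted p = 0.083) and -0.48 at 48 h (adjusted p = 0.014), smaller than its 4 h difference of -1.53, with other control arrays. Lasp1 turned over: 2 of its 5 probe sets were called higher at 48 h, by 0.34 and 0.49. Among the 4 treated times, the lowest mean of the 82 probe sets was at 4 h for 7, at 8 h for 23, at 24 h for 14 and at 48 h for 38. The same split over all tested probe sets was not counted, so these counts are description only.

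The rises lasted less evenly. Of the 18 probe sets, 14 were higher at 24 h and none lower, and at 48 h 7 were higher and 4 lower. Such calls were common among everything tested. The background was 16.6% up and 12.5% down at 24 h, then 20.6% up and 17.7% down at 48 h. Whether 4 lower of 18 exceeds the 48 h background was not tested, so that count is description only. Apc, Pik3r3, Mxd4, Pak7, Nol4l and Lrg1 were called higher at both times. Nol4l stood at 949.5 ± 60.4 (SD, n = 3) at 24 h, against 209.4 ± 50.3 at 4 h. Hes6, Lrba and Rfx5 were higher at 24 h and lower at 48 h, with Hes6 at 621.9 ± 91.3 at 24 h and 184.3 ± 10.1 at 48 h, against 485.4 ± 57.3 in the vehicle arrays with no stated time. Adamts10 was not called at 24 h and lower at 48 h, and Ly6e and Shoc2 were called at neither time.

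**Figure D5:**
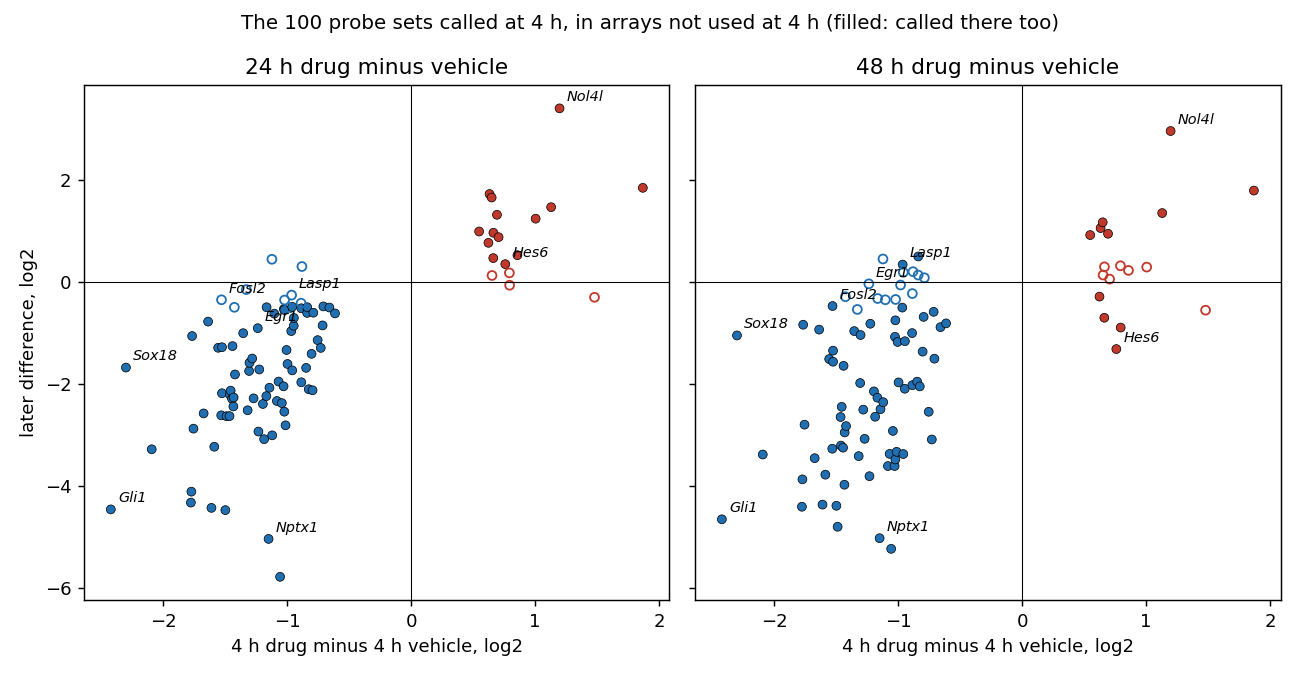
The 100 probe sets called at 4 h (blue lower, red higher), with the 4 h difference on the x axis and the difference at 24 h (left) or 48 h (right) from the vehicle arrays with no stated time on the y axis, all in log2; filled points were called at the later time and open points were not. Of the 82 blue points 73 are filled below 0 at 24 h and 67 at 48 h, while Egr1 is at -0.04 at 48 h and Hes6 crosses to -1.32.

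Directly compared with 4 h, the 8 h treated arrays were lower for 13 of the 82 probe sets (0.402% of all tested were lower) and higher for 3 of the 18 (0.0827% of all were higher), with no call in the opposite direction. The treated 4 h arrays also entered the 4 h calls, so these counts are not independent of the choice of probe sets. Gli1 was 10.53 ± 11.25 (SD, n = 3) at 8 h, a further difference of -2.20 (adjusted p = 0.00038). For the other 69 falls no difference between 4 and 8 h passed the test. Sox18, for instance, was 133.4 ± 28.2 at 8 h (difference -0.34, adjusted p = 0.74), and Fosl2 165.5 ± 15.01 (-0.29, adjusted p = 0.62).

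In resistant tumours most of the early probe sets were not called against vehicle, though calls were more frequent than over all tested probe sets. Of the 82, 72 were not called against the untimed vehicle arrays, 7 were lower and 3 higher, where 1.84% of all tested probe sets were lower and 2.96% higher. Their median difference was -0.05. All 3 that were higher have no single symbol, and the named genes that were lower were Wnt4 (-1.23 and -1.14), Arhgap8 (-1.04), Nptx1 (-0.90 and -0.63) and 2 probe sets of Tbata (-0.62 and -0.52). For Gli1 the difference was 0.33 (adjusted p = 0.58). Of the 18 rises 12 were not called and 3 were higher (Lrg1 at 1.40, Pik3r3 at 0.47 and Mxd4 at 0.37). The other 3 were lower (Glcci1 at -0.51, Mab21l2 at -0.47 and Lrba at -0.46). The shares over all tested probe sets are those given above for the falls.

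To show the DNA beside the genes that fell together, upstream sequences of 3 of them follow, taken from RefSeq (mouse, GRCm38.p6), 150 bases before the start of transcription on the gene's own strand. Ptch1, on chromosome 13, is shown as a Hedgehog target that fell, and its window holds none of the motifs searched, nor do those of Gli2 and Mycn. Otud7a on chromosome 7 holds a cyclic AMP response element and Ror2 on chromosome 13 an AP-1 site, the element bound by Fosl2 with a Jun partner, and capitals mark these. The windows are chr13:63565736-63565885 (minus strand), chr7:63444622-63444771 (plus strand) and chr13:53286125-53286274 (minus strand), in the order below.
Ptch1: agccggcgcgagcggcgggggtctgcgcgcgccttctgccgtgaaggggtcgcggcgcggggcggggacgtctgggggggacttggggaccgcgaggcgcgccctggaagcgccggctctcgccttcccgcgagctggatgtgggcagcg
Otud7a: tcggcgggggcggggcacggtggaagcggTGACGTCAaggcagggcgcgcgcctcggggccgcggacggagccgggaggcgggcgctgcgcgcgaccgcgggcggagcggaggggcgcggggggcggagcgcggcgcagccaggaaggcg
Ror2: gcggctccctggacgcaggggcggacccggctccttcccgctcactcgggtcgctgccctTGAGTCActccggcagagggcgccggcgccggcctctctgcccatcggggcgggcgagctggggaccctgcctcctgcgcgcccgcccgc

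Altogether 4 motifs were searched on both strands of the windows from 250 bases before to 50 after the start, in 34 of the 45 genes that fell, 11 of the 15 that rose and 11982 of the tested genes. The Gli site GACCACCCA was in 0.234% of all windows and in none of those of either called group. Gli1, Ccnd1 and Boc had no window, so of the Hedgehog targets that fell only Ptch1, Gli2 and Mycn were searched. Sox18 and Egr1 also had none. The cyclic AMP response element TGACGTCA was in 3.24% of all and in 2 of 34 genes that fell, Otud7a and Mir9-3hg. The AP-1 site TGANTCA was in 6.9% of all, in 3 of 34 that fell (Ccm2, Frmd4b and Ror2) and in 1 of 11 that rose (Rfx5). The SRF CArG box was in 1.58% of all and in 1 of 34, Prm1. A match describes the letters of these windows and is not a site of binding, and a window without a match says only that these letters are not in it.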

How the data were processed

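The authors deposited linear signal intensity for 45101 probe sets on 23 arrays, processed with MAS5 per the submitters' processing notes (no version given). Arrays share a scale, with a 2% trimmed mean of 150. Detection calls and probe-level values were not used here, and array number limits precision. Probe sets were named from the platform annotation: 34958 have 1 symbol, 932 several and 9211 none. The 64 control probe sets were left out. Probe sets above the 40th percentile of 2 or more arrays were tested (35069). Log2(signal + 16) was fitted with limma 3.58.1 (R 4.3.3), 1 mean for each of 8 groups, eBayes with trend, two-sided, Benjamini-Hochberg over all tested probe sets, threshold 0.05. The resistant dose groups have equal weight. The fit and the calls were checked on simulated data. Lists use each gene's brightest probe set.

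Named genes are 11 core pathway genes where annotated, every called probe set with 1 symbol, the uncalled list members with the smallest p and those just outside the threshold. Members and lists were chosen with earlier results of these data known, and called genes were grouped by role after their values were seen. Alternatives were other offsets, filters, normalization, controls, blocks and left-out arrays. Some genes are not reported here.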

Additional observations from a re-analysis of the deposited data

Results flagged for a closer look

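The 8 h treated arrays differed from the 4 h treated arrays, by limma's test of the difference itself, for 12 named probe sets called at 4 h. That comparison uses no vehicle array, but it reuses the treated 4 h arrays on which these probe sets were called. It is therefore not independent of that choice. In 9 of them the fall went on: Gli1 by -2.20 (adjusted p = 0.00038), Arhgap8 by -1.82 (adjusted p = 0.00069), Tbata by -1.63, -1.63 and -1.30 on 3 probe sets (adjusted p = 5.8e-06, 3.1e-05 and 0.00019), Nptx1 by -1.08 and -0.84 (adjusted p = 0.00028 and 0.0081), Egr1 by -0.79 (adjusted p = 0.041) and Frmd4b by -0.70 (adjusted p = 0.015). In the other 3 the rise went on: Mxd4 by 0.95 (adjusted p = 5e-05), Pik3r3 by 0.82 (adjusted p = 0.00055) and Rfx5 by 0.55 (adjusted p = 0.022).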

How the results depend on the processing

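None of the 85 called probe sets with 1 symbol changed sign in any alternative; 1 unnamed rise did against the untimed vehicle arrays. The 100 calls (82 lower, 18 higher; 6 Hedgehog targets) became 55 (51 and 4) by eBayes without trend, 187 (139 and 48) fitting only the 5 arrays, 368 (250 and 118) against all 5 vehicle arrays and 731 (414 and 317) with the 3 vehicle arrays with no stated time as control. The share lower was 82% in the reported fit and 92.7%, 74.3%, 67.9% and 56.6% in these. With the identifier run as a block, which removes vehicle replicate 1 from the contrast, they became 25 (19 and 6; 2 Hedgehog targets) and without the 2 treated arrays whose source names say resistant 34 (31 and 3; 0 Hedgehog targets by each gene's brightest probe set, though the other 2 Ccnd1 probe sets were called). Leaving out 1 array gave 30 to 69 calls, 21 to 60 lower and 2 to 9 higher, and 2 to 6 Hedgehog targets. Among the 100, calls in resistant tumours (16 reported) ran from 9 to 21, and calls between the vehicle groups (2 reported) from 0 to 1. Offsets of 1 and 64, quantile normalization, no filter and a 60th percentile filter gave 90, 98, 92, 89 and 108. Replicate numbers did not pair arrays (correlations of deviations from -0.03 to 0.03), and the replicate block gave 85 calls, 84 of them among the 100. The causes were not tested. MAS5 values without detection calls leave low signals uncertain.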

Other observations

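Some glial markers, picked after their values were seen, had lower signals on the treated arrays at 4 h without being called. S100b, a calcium-binding protein of astrocytes, had signals of 484, 430 and 392.6 on the treated arrays against 1193.9 and 1107.2 on the vehicle arrays (difference -1.37 in log2, limma adjusted p = 0.37). Olig1 and Olig2, transcription factors of the oligodendrocyte lineage, gave -1.21 (147.3, 152 and 183.9 against 348.6 and 442.7, adjusted p = 0.19) and -0.76 (adjusted p = 0.41), and Sox9, a glial and progenitor factor, -0.99 (adjusted p = 0.46). Of the lists as a whole, 7 of 15 astrocyte and glia markers and 8 of 10 oligodendrocyte and Schwann cell markers were below 0. The median over 15 astrocyte and glia markers was 0.01 and over 10 oligodendrocyte and Schwann cell markers -0.33, with 0 called in either.

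Of the 82 probe sets that fell, treated replicate 1 was the one nearest to the vehicle arrays in 41, replicate 2 in 15 and replicate 3 in 26. Of the 18 that rose, replicate 3 was nearest in 11. The same counts over all tested probe sets were not made, so these are description only. Replicate 1 is the treated array whose labels do not conflict.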
